A study of Homo sapiens with 2 samples.

Results

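The genes described are 37 NF-kB subunits, regulators and target genes, out of 16085 genes and loci listed in either library. They were given as a fixed list and found by Entrez Gene identifier. By role they comprised a signalling core of 15 (5 NF-kB subunits, 5 kinases or kinase subunits and 5 receptor-proximal adaptors), 10 inhibitors and 12 effector targets. The shZEB1 library held 35 of them and the shCtrl library 36. VCAM1, an endothelial-type adhesion molecule, was in neither file, and LCN2, an iron-scavenging secreted protein, was listed in shCtrl only.

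NF-kB is a family of transcription factors held inactive in the cytoplasm by IkB proteins. Receptors for TNF, IL-1 and bacterial products activate the IKK kinase complex through TRAF, cIAP and RIPK adaptors, and IKK marks IkB for destruction, so that RELA-p50 dimers enter the nucleus. A slower, non-canonical branch runs through the kinase NIK (MAP3K14) and the processing of NFKB2, and yields RELB dimers. Many of the genes that NF-kB switches on encode its own inhibitors, which makes the pathway self-limiting, and others encode adhesion molecules, survival factors and inflammatory mediators. Constitutive NF-kB activity is a known trait of MDA-MB-231 cells, a line from a human triple-negative breast carcinoma. Whether the cells used here share that trait was not tested.

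The data are 1 shZEB1 and 1 shCtrl library of oligo(dT)-enriched RNA, and the line is given as MDA-MB-231 for both. The shZEB1 cells carried a knockdown of ZEB1, a zinc-finger repressor known for driving epithelial-to-mesenchymal transition, and the shCtrl cells were the control by their title. The labels do not say which hairpin was used or whether either line was a single clone. With 1 library per group, the conditions could not be tested against each other and culture-to-culture spread is unknown.

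The shZEB1 library held 8441491 assigned reads and the shCtrl library 8740584. ZEB1 itself had 15 reads in shZEB1 and 46 in shCtrl, a read ratio of 0.338 (95% interval 0.175 to 0.616). Its FPKM of 0.31 in shZEB1 and 0.88 in shCtrl lay below the minimum of 1 used below, so by that rule the targeted gene was not measured in either library. Markers did not bear out the line label. Of 12 melanocyte markers, which a breast carcinoma line would not be expected to express, 10 reached 10 FPKM in shZEB1 and 10 in shCtrl. Their summed FPKM was 1405 in shZEB1 and 1868 in shCtrl, and OCA2 was in neither file. PMEL was the highest of them, at 405 in shZEB1 and 703 in shCtrl. Of 13 markers of basal-type breast lines, 5 reached that level in shZEB1 and 6 in shCtrl, and KRT5 and KRT19 were in neither file. Those that reached it were KRT18, CAV1, MSN, CD44 and PLAUR in both libraries, and AXL in shCtrl. EGFR was at 0.65 FPKM in shZEB1 and 0.52 in shCtrl, and KRT14 and KRT17 had no more than 1 read in either library. The identity of the cells was not tested. Leukocyte markers were scarce. Their summed FPKM over 12 genes was 15.6 in shZEB1 and 29.2 in shCtrl, most of the difference lay in CD68 (4.12 in shZEB1, 18.7 in shCtrl), and PTPRC, CD163 and TYROBP were at 0 in both. Interferon-stimulated genes were lower in shZEB1, with a summed FPKM of 138 in shZEB1 and 454 in shCtrl over 16 genes, and the read interval lay below 1 for all 15 that were measured. The part of these marker differences in the values below was not tested. In bulk RNA, fewer cells of a type and less RNA per cell cannot be told apart.

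Levels are given as FPKM, a level corrected for gene length and for the size of the library. Differences are log2((FPKM + 1) in shZEB1 / (FPKM + 1) in shCtrl), and intervals are 95% exact binomial intervals of the read ratio, shZEB1 over shCtrl, which cover counting error only. A gene was taken as measured at an FPKM of at least 1 in either library, and counted as higher or lower where the log2 ratio reached 1 or -1 and the interval excluded 1. Of the 37 genes, 35 were measured. BIRC3, whose FPKM stayed below 1 in both libraries, and VCAM1 were not.

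Of the 35, 4 were counted as lower in shZEB1 (ICAM1, NFKBIA, TNFAIP3 and LCN2) and 0 as higher. Over all 12274 measured genes and loci, the same rule counted 1.61% as lower and 0.937% as higher. By the interval alone, 17 of the 35 were lower, 1 was higher and 17 included 1, against 21.4% lower and 27.9% higher over all measured genes. The median log2 ratio was -0.21 for the 35 genes and 0.02 for all measured genes. The difference was unevenly spread over the roles. The signalling core had a median of -0.09, and 10 of its 15 intervals included 1. The core was itself split. Its 5 subunits had a median of -0.39, close to that of the inhibitors, with 3 intervals below 1 and 1 above. Its 5 kinases or kinase subunits had a median of 0.08, with 1 interval below 1. Its 5 adaptors had a median of -0.09, with 0 intervals below 1. The inhibitors had a median of -0.39, and 8 of 10 intervals lay below 1. These roles are coarse. The inhibitors include the atypical, nuclear members BCL3, NFKBIZ and NFKBID, of which BCL3 can also act as a coactivator. The core includes TRAF3, which holds the kinase NIK low. The measured effector targets had a median of -0.31, and 5 of 10 intervals lay below 1. That median was the same with LCN2 at a floor of 3 reads in shZEB1, and was -0.23 over the 9 effector targets that reached 1 FPKM in shZEB1 and in shCtrl. LCN2 is the 1 member that entered through shCtrl only, and with it at the floor of 3 reads the count of lower members was 3. Since the genes were chosen with results of these libraries known, the counts describe the list and test nothing about it.

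**Figure D1:**
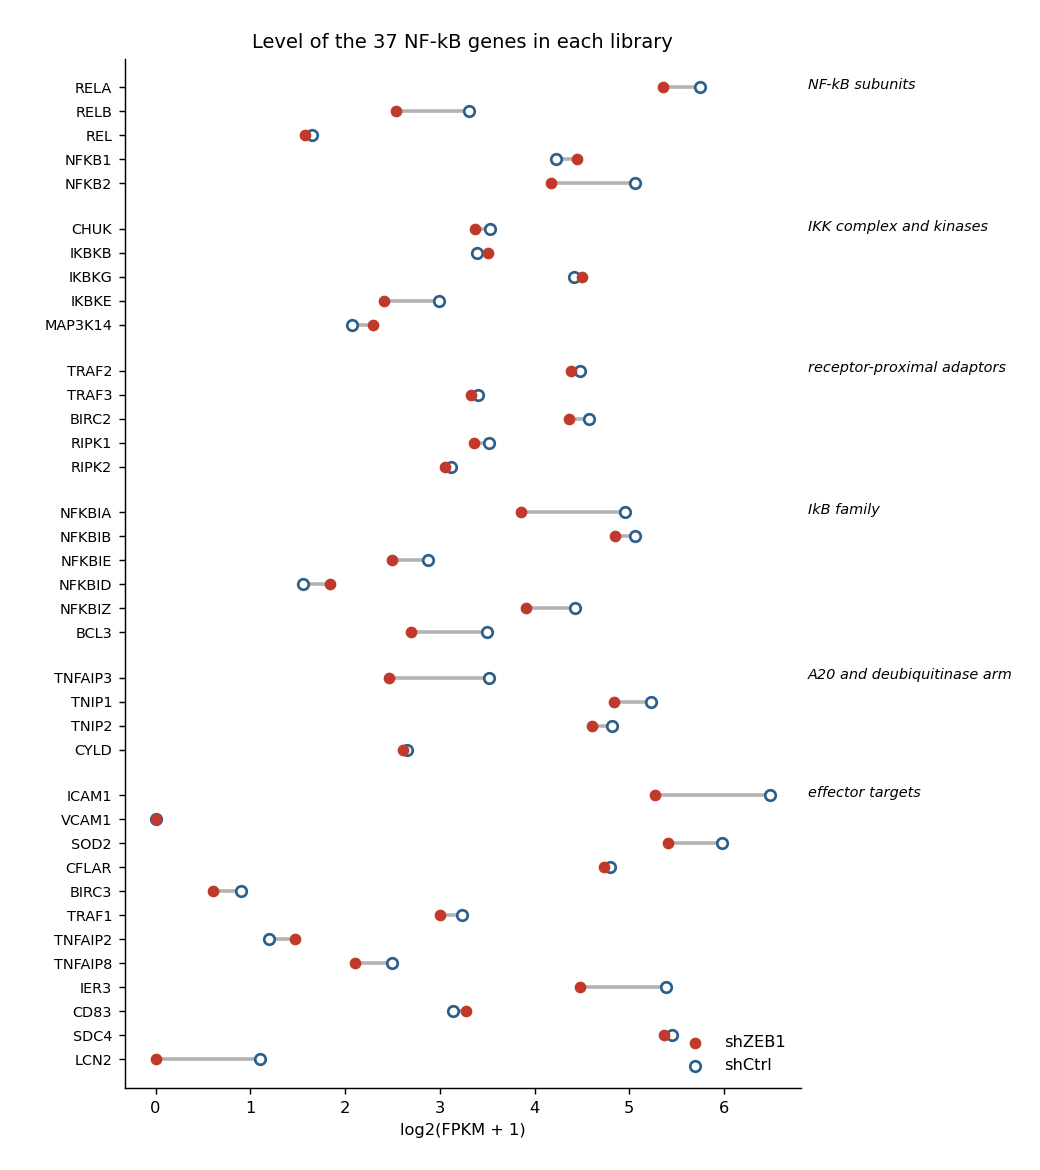
Level of each of the 37 genes as log2(FPKM + 1), with filled points for the shZEB1 library and open points for the shCtrl library, grouped by role. The widest gaps belong to ICAM1, LCN2, NFKBIA and TNFAIP3, each lower in shZEB1, while VCAM1 sits at 0 in both.

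Several of these genes are known both as parts and as products of the pathway. RefSeq promoter entries (GRCh38.p14) were matched for 32 of the 37 genes; RELB, IKBKB, RIPK2, NFKBIE and IER3 had none. The 250 bases before each annotated start were searched on both strands for the 10-base kB consensus, the sequence that NF-kB dimers are known to bind. Some of these windows lay in annotated exons of any gene. Exons covered 241 bases of the NFKB1 window that held a match, all 250 of the ICAM1 window and 0 of the NFKBIA window. A match was found before at least 1 start in 14 of the 32 genes (43.8%), against 8.22% of all 27305 genes with an entry and 10.8% of the 9546 of them measured here. Per window, 26.7% of the 60 windows of these genes held it and 6.88% of all 35116. By role it was found in 7 of 9 inhibitors, 4 of 12 core genes and 3 of 11 effector targets. The shorter pattern GGAAANNCC, which overlaps many consensus matches, was found in 17 of the 32 genes (53.1%) and 6.69% of all. That shorter pattern was chosen after the promoters had been seen. The list was drawn up from NF-kB genes and known targets, so a share of matches above that of all genes was built in and tests nothing.

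The stretches below show matches in selected genes, 5′ to 3′ on the gene's own strand, with the matched bases in capitals. The inhibitor genes NFKBIA (chr14:35404811-35404840, minus strand), TNFAIP3 (chr6:137867188-137867217, plus strand), TNIP1 (chr5:151081057-151081086, minus strand) and NFKBIZ (chr3:101827757-101827786, plus strand) come first.
NFKBIA: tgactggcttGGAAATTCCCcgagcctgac
TNFAIP3: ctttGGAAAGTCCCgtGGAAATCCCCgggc
TNIP1: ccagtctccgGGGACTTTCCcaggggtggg
NFKBIZ: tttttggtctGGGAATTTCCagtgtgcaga
The genes of the 2 precursor subunits, NFKB1 (chr4:102501300-102501329) and NFKB2 (chr10:102395674-102395703), both on the plus strand, are shown because both hold a match and they differed in direction.
NFKB1: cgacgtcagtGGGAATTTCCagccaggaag
NFKB2: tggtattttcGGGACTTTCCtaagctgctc
Among effector genes, ICAM1 (chr19:10270924-10270953) held GGAAANNCC without the full consensus, and BIRC3 (chr11:102317275-102317304) and VCAM1 (chr1:100719670-100719699) held the consensus, all on the plus strand.
ICAM1: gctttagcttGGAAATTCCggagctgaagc
BIRC3: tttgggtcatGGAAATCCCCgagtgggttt
VCAM1: tccccttgaaGGGATTTCCCtccgcctctg
The TNFAIP3 stretch holds a closely spaced pair of matches, and NFKB2 had matches before 2 of its 3 annotated starts. Of the effector genes shown, BIRC3 and VCAM1 were not measured. Consensus matches in REL, TRAF3, NFKBIB, NFKBID, CYLD and CD83 are not shown. Of these genes, only NFKBIB had an interval below 1, and the intervals of the others included 1. The inhibitor gene BCL3 and the effector genes TNFAIP2 and SDC4 also held GGAAANNCC without the full consensus and are not shown. The interval of BCL3 lay below 1, and those of TNFAIP2 and SDC4 included 1.

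The full 250 bases before the start of NFKBIA (chr14:35404750-35404999, minus strand) are given because it is the classical feedback inhibitor of the pathway and was among the genes counted as lower. Capitals mark matches to either pattern, of which the consensus match begins 81 bases before the start.
NFKBIA promoter: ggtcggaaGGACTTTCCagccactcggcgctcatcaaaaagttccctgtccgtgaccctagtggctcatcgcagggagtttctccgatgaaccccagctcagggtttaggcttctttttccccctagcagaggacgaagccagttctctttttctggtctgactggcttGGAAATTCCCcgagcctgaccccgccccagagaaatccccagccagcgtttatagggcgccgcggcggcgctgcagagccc

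The ratios were set beside the promoter matches as a description, without a test. Of the 12 measured genes with a match, 6 had an interval below 1 and 2 were counted as lower, with a median log2 ratio of -0.14. Of the 18 without one, 8 had an interval below 1 and 2 were counted as lower, with a median of -0.21. By the shorter pattern, 8 of the 15 measured genes with a match and 6 of the 15 without had an interval below 1. The median log2 ratios were nearly equal, -0.211 with a match and -0.209 without. Of the 4 genes counted as lower, 3 held the shorter pattern and 2 the consensus. Since the shorter pattern was chosen after the promoters had been seen, that count tests nothing. The 5 genes with no promoter entry stand outside both splits, and 3 of them had an interval below 1. These are matches of letters in short windows and say nothing of binding in these cells.

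The 5 NF-kB subunits differed among themselves. RELA, the main activating subunit, had an FPKM of 39.9 in shZEB1 (857 reads) and 52.5 in shCtrl (1164 reads), with a read ratio of 0.762 (interval 0.697 to 0.833). NFKB2, the precursor of p52, had 17.1 in shZEB1 (450 reads) and 32.3 in shCtrl (881 reads), with a read ratio of 0.529 (interval 0.471 to 0.593). RELB, the partner of p52 in the non-canonical branch, had 4.82 in shZEB1 (91 reads) and 8.93 in shCtrl (174 reads), with a read ratio of 0.542 (interval 0.416 to 0.702). The non-canonical pair thus had the lowest ratios of the 5. Both missed the size rule, with log2 ratios of -0.88 for NFKB2 and -0.77 for RELB.

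NFKB1, the precursor of p50, lay the other way. Its FPKM was 20.8 in shZEB1 (712 reads) and 17.7 in shCtrl (632 reads), with a read ratio of 1.17 (interval 1.05 to 1.30), and it was the only one of the 35 whose interval lay above 1. REL, the subunit known mainly from lymphoid cells, was scarce at 1.99 in shZEB1 and 2.13 in shCtrl, and its interval of 0.730 to 1.19 included 1.

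The order of the subunit levels changed in 1 place. RELA was the most abundant in both libraries and RELB and REL the least. NFKB1 ranked above NFKB2 in shZEB1, where they made up 24.6% and 20.2% of the summed subunit FPKM, and below it in shCtrl, where they made up 15.6% and 28.4%. RELA kept a similar share, 47.1% in shZEB1 and 46.2% in shCtrl. The summed FPKM of the 5 subunits was 84.6 in shZEB1 and 114 in shCtrl.

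**Figure D2:**
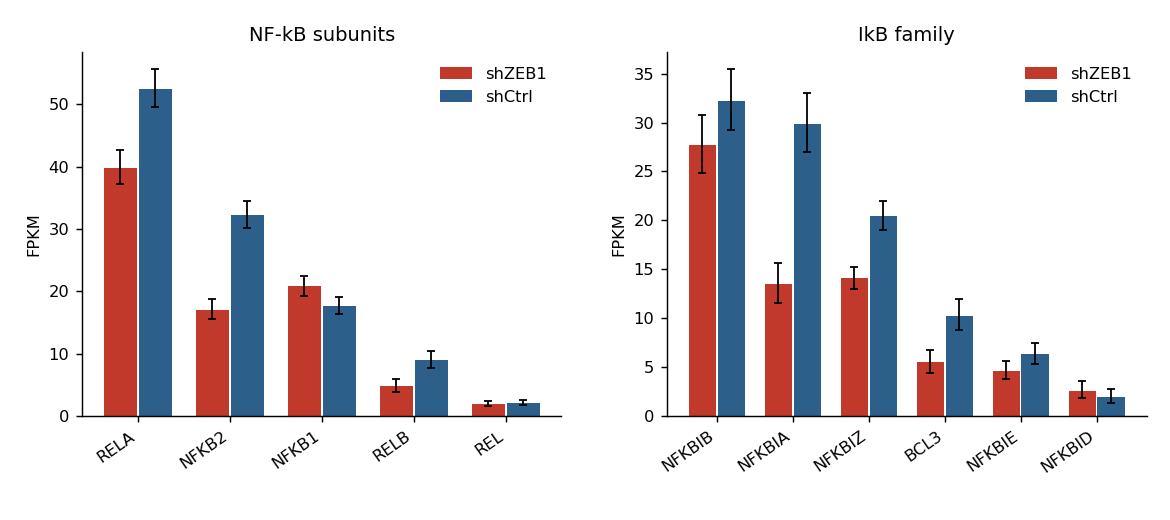
FPKM of the 5 NF-kB subunit genes (left) and the 6 IkB family genes (right), with shZEB1 bars left of shCtrl bars; error bars are 95% exact Poisson intervals of the reads on the FPKM scale and cover counting error only. NFKB2 and NFKBIA show the clearest separation in their panels, and NFKB1 and NFKBID are the genes with the taller shZEB1 bar.

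The canonical kinase genes were close between the libraries. IKBKG, the scaffold subunit NEMO, had an FPKM of 21.6 in shZEB1 and 20.3 in shCtrl, and its ratio was 1.06 (interval 0.913 to 1.23). IKBKB, the catalytic subunit that phosphorylates IkB, had 10.3 in shZEB1 and 9.48 in shCtrl (interval 0.942 to 1.28). CHUK, the other catalytic subunit, had 9.32 in shZEB1 and 10.5 in shCtrl (interval 0.752 to 1.05). All 3 intervals include equal levels, and their width bounds how close the levels can be said to be. IKBKG has a near-identical pseudogene copy, and its separate value is uncertain.

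MAP3K14, which encodes NIK and starts the non-canonical branch, had an FPKM of 3.92 in shZEB1 and 3.22 in shCtrl, with an interval of 0.959 to 1.56. It therefore lay in the opposite direction to NFKB2 and RELB, although its interval included 1. IKBKE, an inducible IKK-related kinase that also acts in interferon induction, was the exception of the group at 4.33 in shZEB1 (126 reads) and 6.95 in shCtrl (209 reads), with a read ratio of 0.624 (interval 0.496 to 0.782). Exons of MAP3K14 overlap those of the antisense gene MAP3K14-AS1 over 12.3% of their bases.

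The adaptors that link receptors to the kinases were the most even group: all 5 intervals included 1, and log2 ratios ran from -0.22 to -0.07. TRAF2, which recruits cIAP proteins to TNF receptors, had 19.9 FPKM in shZEB1 and 21.2 in shCtrl. BIRC2, which encodes the ubiquitin ligase cIAP1, had 19.5 in shZEB1 and 22.9 in shCtrl, with an interval of 0.799 to 1.002 that only just reached 1. TRAF3, which holds NIK at a low level, had 9.02 in shZEB1 and 9.58 in shCtrl. RIPK1, the kinase scaffold of the TNF receptor complex, had 9.24 in shZEB1 and 10.4 in shCtrl, and RIPK2, which signals from NOD receptors, 7.29 in shZEB1 and 7.69 in shCtrl.

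**Figure D3:**
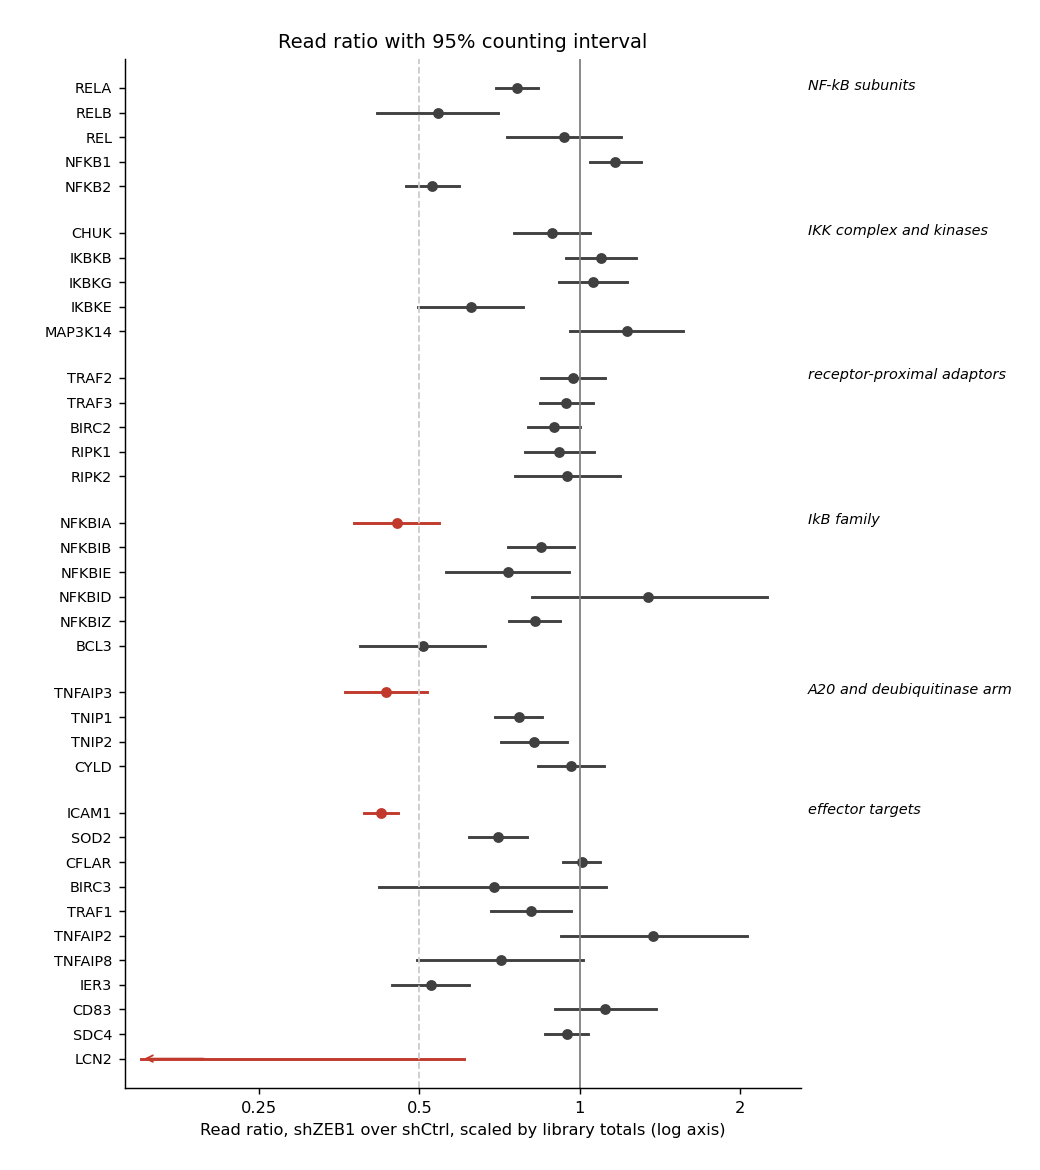
Read ratio of shZEB1 over shCtrl, scaled by library totals, on a log axis with 95% exact binomial counting intervals for the 36 genes listed in either library; coloured genes are those counted as lower, the solid line marks a ratio of 1 and the dashed line 0.5. Kinase and adaptor genes have intervals that include 1 apart from IKBKE, and most inhibitor genes lie left of it. The arrow marks LCN2, which had no reads in shZEB1.

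The IkB family, which binds NF-kB dimers, was lower in 5 of 6 members by the interval. NFKBIA (Entrez Gene 4792, chr14:35401513-35404749 in GRCh38.p14), which encodes IkB-alpha, the inhibitor that is resynthesised after each round of activation, was 2.22-fold lower. It had 13.5 FPKM in shZEB1 from 174 reads and 29.9 in shCtrl from 397 reads, a ratio of 0.454 (interval 0.378 to 0.544) and a log2 ratio of -1.09. Of all measured genes and loci, 1.30% had a lower log2 ratio.

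The other classical inhibitors differed less. NFKBIB, which encodes IkB-beta, had 27.7 FPKM in shZEB1 and 32.2 in shCtrl (ratio 0.847, interval 0.734 to 0.976). NFKBIE, which encodes IkB-epsilon, had 4.63 in shZEB1 and 6.34 in shCtrl (ratio 0.732, interval 0.560 to 0.954). NFKBIA made up 19.8% of the summed FPKM of the family in shZEB1 and 29.6% in shCtrl, while the share of NFKBIB was 40.8% in shZEB1 and 31.9% in shCtrl.

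The atypical, nuclear members of the family were split. BCL3, a partner of p50 and p52 dimers that can act as a coactivator, had 5.49 FPKM in shZEB1 (85 reads) and 10.3 in shCtrl (173 reads), with a read ratio of 0.509 (interval 0.388 to 0.663). NFKBIZ, a nuclear regulator of secondary response genes, had 14.1 in shZEB1 and 20.5 in shCtrl, with a read ratio of 0.823 (interval 0.738 to 0.918). Its FPKM was 1.46-fold lower, a wider gap than in reads, because the gene length used by the authors was 5040 bases in shZEB1 and 4223 in shCtrl. NFKBID, the third nuclear member, had only 39 reads in shZEB1 and 30 in shCtrl, and its interval of 0.815 to 2.24 included 1.

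The arm that edits ubiquitin chains was led by TNFAIP3 (Entrez Gene 7128, chr6:137866349-137883312 in GRCh38.p14), the gene of the A20 enzyme that ends TNF and IL-1 signalling. It had 4.53 FPKM in shZEB1 from 181 reads and 10.5 in shCtrl from 432 reads, a 2.31-fold lower level (ratio 0.434, interval 0.363 to 0.517, log2 ratio -1.05). Its binding partner gene TNIP1 had 27.5 in shZEB1 and 36.3 in shCtrl (ratio 0.768, interval 0.693 to 0.850). TNIP2, a related adaptor, had 23.3 in shZEB1 and 27.1 in shCtrl (ratio 0.821, interval 0.713 to 0.945). CYLD, a deubiquitinase that restrains the pathway, was at 5.12 in shZEB1 and 5.30 in shCtrl, with an interval of 0.833 to 1.11. TNFAIP3, NFKBIA and BCL3 had the lowest read ratios of the 10 inhibitors, and the intervals of these 3 overlapped.

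Effector targets ran from the gene with the lowest log2 ratio of the list to genes at nearly equal levels. ICAM1 (Entrez Gene 3383, chr19:10271120-10286615 in GRCh38.p14), the adhesion molecule that binds leukocyte integrins, was 2.36-fold lower. It had 37.5 FPKM in shZEB1 from 1013 reads and 88.5 in shCtrl from 2472 reads, with a ratio of 0.424 (interval 0.394 to 0.457) and a log2 ratio of -1.22. Only 0.888% of measured genes and loci had a lower log2 ratio. Exons of other annotated genes on the opposite strand overlap 23.6% of its exon bases, and the strand setting of the counting is not given in the sources used here.

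Other inducible effectors were lower by smaller margins. IER3, an immediate early survival gene, had 21.3 FPKM in shZEB1 and 40.9 in shCtrl (ratio 0.525, interval 0.444 to 0.620, log2 ratio -0.91), and IER3-AS1 overlaps 26.5% of its exon bases. SOD2, the mitochondrial superoxide dismutase, had 41.3 in shZEB1 and 62.1 in shCtrl (ratio 0.702, interval 0.619 to 0.796). TRAF1, an inducible TRAF adaptor, had 7.00 in shZEB1 and 8.41 in shCtrl (ratio 0.810, interval 0.683 to 0.961).

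LCN2 (chr9:128149453-128153453) was counted as lower on few reads, with 0 in shZEB1 and 8 in shCtrl. Against a floor of 3 reads in the shZEB1 library it was 2.58-fold lower by reads, and the interval of its ratio reached up to 0.607. At that floor its log2 ratio was -0.57, which misses the size rule, so its count as lower rests on taking shZEB1 as 0. With counts scaled by edgeR or DESeq2 factors in place of FPKM, its log2 ratio was -0.95 and it missed the size rule.

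The remaining effectors had intervals that included 1. CFLAR, which encodes the caspase-8 inhibitor FLIP, had 25.6 FPKM in shZEB1 and 26.9 in shCtrl, and its interval was narrow (0.931 to 1.09). SDC4, a heparan sulfate proteoglycan of the cell surface, had 40.3 in shZEB1 and 42.7 in shCtrl (interval 0.862 to 1.04), and CD83, a surface protein of activated immune cells, 8.71 in shZEB1 and 7.80 in shCtrl (interval 0.899 to 1.39). TNFAIP8, an apoptosis regulator, had 55 reads in shZEB1 and 80 in shCtrl (interval 0.496 to 1.02). BIRC3, which encodes the inducible cIAP2, had 30 reads in shZEB1 and 45 in shCtrl (interval 0.420 to 1.12). TNFAIP2, a TNF-induced gene, had 61 reads in shZEB1 and 46 in shCtrl (interval 0.921 to 2.06).

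Within this group the abundant genes did not share a direction of equal size. ICAM1, SOD2, SDC4, CFLAR and IER3 all exceeded 20 FPKM in shZEB1 and in shCtrl, and their read ratios spanned 0.424 to 1.01. The summed FPKM of the 12 effectors was 187 in shZEB1 and 285 in shCtrl, a sum that ICAM1 led in shCtrl and SOD2 led in shZEB1.

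Genes of the pathway outside the list of 37 were taken from 4 lists. Receptors showed no common direction: of 18 genes 10 were measured, with a median log2 ratio of 0.03, and 0 met the size rule. By the interval 3 were lower and 1 was higher. The lower ones were IL1RAP, the shared IL-1 receptor subunit (21.2 FPKM in shZEB1, 30.9 in shCtrl), the lymphotoxin receptor gene LTBR (54.9 in shZEB1, 70.2 in shCtrl) and TNFRSF12A, the TWEAK receptor gene (98.9 in shZEB1, 125 in shCtrl). TLR6 was the higher one, with 2.62 in shZEB1 and 1.04 in shCtrl, and is uncertain because TLR1 is a close copy. TNFRSF1A, the main TNF receptor gene, had 38.8 FPKM in each library. NOD1, a sensor of bacterial peptidoglycan, had 3.48 in shZEB1 and 2.73 in shCtrl, and its interval included 1.

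Adaptors and ubiquitin enzymes showed no common direction either. Of 29 genes 26 were measured, with a median of 0.01, and 0 were counted by the size rule. By the interval 5 were lower (19.2%) and 7 higher (26.9%). These shares were near those of all measured genes, 21.4% lower and 27.9% higher. MYD88, the adaptor of Toll-like and IL-1 receptors, had 10.7 FPKM in shZEB1 and 16.9 in shCtrl, and FADD, the death receptor adaptor, 42.7 in shZEB1 and 64.8 in shCtrl. CARD10, a scaffold of the BCL10-MALT1 complex, had 2.48 in shZEB1 and 1.36 in shCtrl. TANK, a partner of TBK1, had 10.5 in shZEB1 and 6.89 in shCtrl, and TAB3, a subunit of the TAK1 kinase complex, 8.06 in shZEB1 and 5.54 in shCtrl. MAP3K7, the TAK1 gene itself, and TAB1 were also higher by the interval.

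Nuclear partners and other restraints had a median of -0.14 over 15 measured of 16 genes, with 6 lower and 3 higher by the interval. PDLIM2, which promotes the destruction of nuclear RELA, was the 1 gene counted as lower, at 3.86 FPKM in shZEB1 and 8.93 in shCtrl (ratio 0.457, interval 0.343 to 0.603). USP18, an interferon-induced protease, had 7.63 in shZEB1 and 11.6 in shCtrl, and OTUD7B, a deubiquitinase of the A20 family, 8.12 in shZEB1 and 12.1 in shCtrl. NKIRAS1, a small GTPase that binds IkB, had 7.05 in shZEB1 and 4.33 in shCtrl, and PIAS1, a SUMO ligase, 11.8 in shZEB1 and 8.28 in shCtrl.

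Other known targets had a median of -0.49 over 22 measured of 30 genes. Of these 22, 7 reached 1 FPKM in shCtrl only and so had to be lower in shZEB1, and 1 reached it in shZEB1 only. Over the 14 that reached it in both, the median was -0.35 and 3 were counted as lower. Over the 22, by the interval 12 were lower (54.5%) and 2 higher (9.09%), against 21.4% and 27.9% over all measured genes. By the size rule 7 were counted as lower (31.8%, against 1.61% of all measured genes): BCL2A1, CXCL8, CSF3, C3, IL1B, IL6 and SAA1. BCL2A1, an inhibitor of apoptosis, had 113 reads in shZEB1 and 354 in shCtrl, and the complement gene C3 had 14 in shZEB1 and 87 in shCtrl. The neutrophil attractant CXCL8 had 38 reads in shZEB1 and 168 in shCtrl, and CSF3, the granulocyte growth factor, 47 in shZEB1 and 202 in shCtrl. IL1B had 1 read in shZEB1 and 18 in shCtrl, a ratio of 0.0575 (interval 0.00138 to 0.364). IL6 and SAA1 were not listed in shZEB1. Against a floor of 3 reads there, they lay 3.86-fold (IL6) and 5.79-fold (SAA1) lower by reads in shZEB1. Their ratio intervals reached up to 0.373 (IL6) and 0.236 (SAA1). At that floor the log2 ratio of IL6 was -0.79, which misses the size rule, and that of SAA1 was -1.61, which meets it. SAA1 has the similar copy SAA2, so its value is uncertain. The chemokine gene CCL5 and NFAT5, the osmotic stress factor, were the 2 higher ones. Several of these genes respond to other pathways too, and the part of those pathways in the values was not tested.

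**Figure D4:**
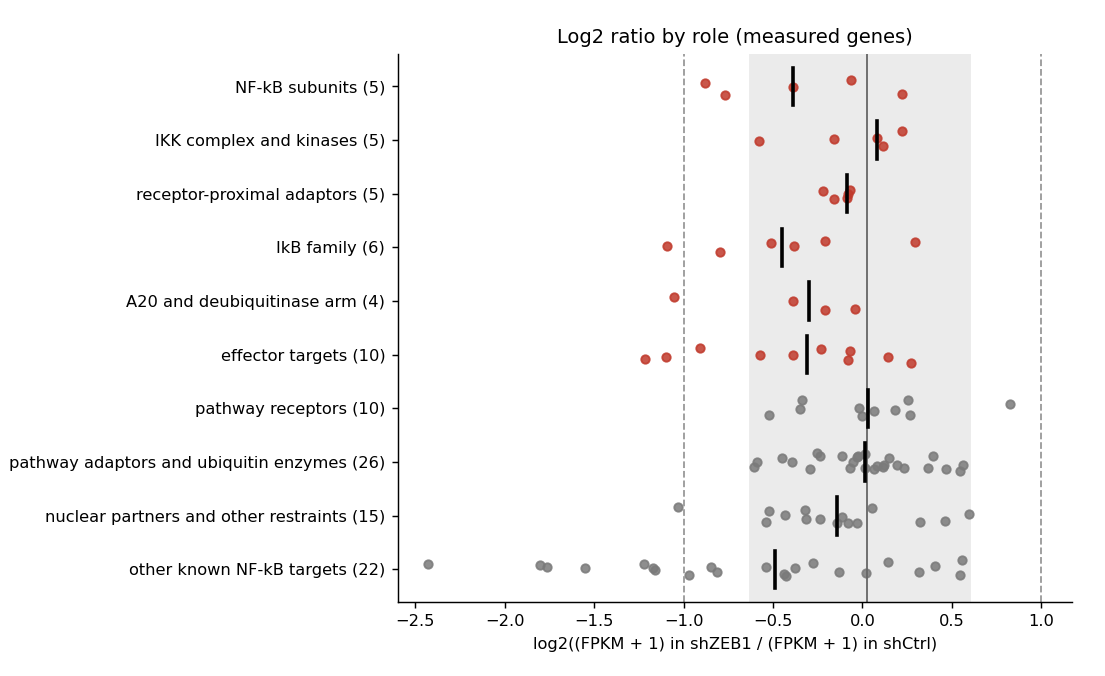
Log2 ratio of (FPKM + 1), shZEB1 over shCtrl, for the measured genes of the 6 role groups (coloured) and the 4 lists of other pathway genes (grey), with the number of measured genes in brackets and a black bar at each median. The band holds the central 90% of all measured genes, from -0.63 to 0.60, and the line inside it is their median. Kinases, adaptors and receptors have medians close to that line, whereas subunits, inhibitors and both target groups lie left of it.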

How the data were processed

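Per the submitters' processing notes, the tools were RSEM 1.2.8, HISAT2 2.1.0, Bowtie2 2.2.5 and DESeq, and the build hg38. Which step each did, with which strand setting, is not stated there. The authors deposited, per the file headers, an expected count (estimated reads) and an FPKM value per gene for each library, with the gene length behind it, which is estimated in each library and can differ between the files. Expected counts were whole for 78.0% of shZEB1 and 78.8% of shCtrl entries, to the 2 decimals given. A gene missing from a file was entered at 0, and a fold against 0 reads was taken with a floor of 3 reads in that library. Such a fold leaves out the counting error of the other library and is not a lower limit. Of 15217 numeric identifiers, 15183 matched RefSeq symbols (GRCh38.p14).

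With 1 library per group no test was run and no p-value is given. The members and lists were chosen with earlier results of these data known. Read ratios were scaled by library totals, and their 95% intervals are exact conditional binomial (Clopper-Pearson) intervals on expected counts rounded to whole numbers. They cover counting error only. They can be too narrow even for that, since PCR reads without molecular identifiers are not independent molecules. Expected counts were taken as exact, so the uncertainty of assigning reads to genes is left out. The interval calculation was tested on simulated independent Poisson counts, the model that the intervals assume. That checks the calculation only and says nothing of how well the intervals suit these libraries. The named genes were all 37 members, and of each other pathway list the up to 5 measured genes with the largest absolute log2 ratio and every gene counted. TNFRSF1A, MAP3K7, TAB1, CCL5 and NFAT5 were named after their values were seen. Exon overlaps came from GENCODE release 29. Alternatives were a pseudocount of 0.1, TPM, counts scaled by edgeR 4.0.16 TMM or DESeq2 1.42.0 size factors (scaling only), 3 other FPKM minimums and a 1.5-fold rule. The calculations ran in R 4.3.3 and in Python 3.11.15 with SciPy 1.17.1, pandas 2.3.3 and NumPy 2.4.6.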

Additional observations from a re-analysis of the deposited data

How the results depend on the processing

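The count of 4 members lower and 0 higher, out of 35 measured, became 8 lower under the 1.5-fold rule, which added NFKB2, RELB, BCL3 and IER3; that rule counted 5.41% of all measured genes as lower. The median log2 ratios stayed below 0 in every alternative run: -0.16 to -0.04 for the signalling core, -0.42 to -0.36 for the inhibitors and -0.41 to -0.23 for the effector targets. The member count was 3 under edgeR and DESeq2 scaling, under either stricter FPKM minimum and with absent genes at the floor of 3 reads, each time without LCN2. Over all genes measured under the same setting, the share counted as lower was 2.13% with edgeR and 2.12% with DESeq2 scaling. It was 1.23% where each library had to reach 1 FPKM and 1.46% where either had to reach 5. Among other pathway genes, 1 receptor gene was counted as higher with a pseudocount of 0.1, TPM, either count scaling or the 1.5-fold rule, where 0 had been. Of all measured genes, 2.53% were counted as higher with that pseudocount and 1.92% with TPM. The share was 1.7% with either count scaling and 4.98% under the 1.5-fold rule. The 1.5-fold rule also counted 2 adaptor genes as lower and 1 restraint gene as higher. The 7 other known targets counted as lower became 3 when each library had to reach 1 FPKM, and 3 when either had to reach 5, since scarce genes leave the set. It was 6 with absent genes at the floor, 9 with a pseudocount of 0.1 or either count scaling, and 10 under the 1.5-fold rule. With the pseudocount of 0.1, 2.4% of all measured genes were counted as lower, against 1.61% under the main rule. The floor and the shorter promoter pattern were chosen as alternatives after seeing the data. No scaling moved the median of all measured genes by more than 0.1. No paired analysis was possible because each group had 1 library, and no replicate could be left out. Depth limits genes of few reads, such as LCN2, NFKBID and BIRC3, whose intervals are wide.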

Other observations

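For a few members the FPKM and the reads part, because the gene length in the deposited files differed between the libraries. BIRC3 had a length of 6932 bases in shZEB1 and 5940 in shCtrl, so that its FPKM was 1.67-fold lower while its read ratio was 0.690. CFLAR had 5697 bases in shZEB1 and 5393 in shCtrl, with a read ratio of 1.01. Reads of REL, RIPK1, NFKBIB, NFKBIZ, CFLAR and IER3 were not whole numbers in at least 1 library, and the cause was not tested. Exons of a second annotated gene on the same strand overlap 43.3% of the exon bases of REL.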
